A study of Homo sapiens with 4 samples.

Results

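Albumin and the plasma carrier proteins are secreted by hepatocytes and move fatty acids, metals, haem, vitamins and hormones through the blood. The group was made up of 10 genes chosen by symbol, namely ALB, TF, TTR, SERPINA1, AHSG, RBP4, GC, HPX, SERPINA6 and SERPINA7, and each matched 1 row of the 44591 genes in the deposited tables. RBP4, the carrier of retinol, gave 90.6% and 91.7% of their few counts in the replicate 1 libraries and 43.8% and 50% in the replicate 2 libraries, and the other members together had 10 counts in the replicate 1 libraries and 138 in the replicate 2 libraries. ALB, TF, SERPINA1 and AHSG were called higher in replicate 2, beside 7.96% of all genes tested. These genes had enough counts to be tested only through replicate 2, so their calls are no support of their own. No member was called between the siRNA treatments, beside 0.0% of all genes tested.

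The liver makes most plasma proteins and passes them through the secretory pathway into the circulation. Albumin carries fatty acids, bilirubin and many drugs, transferrin carries iron to its receptor, and hemopexin takes up free haem. Retinol-binding protein travels in plasma bound to transthyretin, which also carries thyroxine. In the adult liver these genes are driven by a small set of transcription factors, among them the HNF4, FOXA and C/EBP families, and HepG2, a line derived from a human liver tumour, is known for secreting albumin and other plasma proteins in culture.

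RNA-seq libraries were made from cells labelled HepG2 that had been transfected with a control siRNA, siNC, or with siLINC01186, an siRNA against the long noncoding RNA LINC01186, also called SALIS. There were 2 libraries of each treatment, numbered replicate 1 and replicate 2. Transfection was done at about 70% confluency in medium without serum for 6 h, followed by medium with 10% serum for 24 h. The same siNC but different siLINC01186 oligos were used in the replicates according to the study, so that oligo and replicate number cannot be told apart in the siLINC01186 libraries. The study calls them biological repeats of 1 cell line. P-values between treatments are set against the spread within each treatment, which includes the difference between replicate numbers. P-values between replicate numbers are set against what treatment and replicate number together leave unexplained. That remainder includes any difference of the treatment effect, or of the oligos, between the replicates.

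The libraries held between 14968958 and 17297245 counts, and between 25159 and 26084 genes had a count. LINC01186 itself had 15, 12, 14 and 14 counts in siNC replicate 1, siLINC01186 replicate 1, siNC replicate 2 and siLINC01186 replicate 2, the order used for all sets of 4 values that follow. Its log2 fold change of -0.12 (SE 0.53, unadjusted p = 0.831, edgeR's quasi-likelihood test) was within the spread between the libraries, so a fall of the targeted RNA was not detectable, and the treated libraries are called the libraries labelled siLINC01186.

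The label HepG2 went against several of its liver markers. Among 9 hepatocyte markers, APOA1 had 0, 0, 21 and 20 counts, APOB had 1, 0, 27 and 10 counts, and the fetal liver protein AFP had 2, 4, 6 and 16 counts. APOA2, APOC3, FGA and FGG did not exceed 3 counts in any library, and FGB had 0, 1, 3 and 4 counts. CPS1, the first enzyme of the urea cycle, was the exception with 13416, 11729, 15720 and 14375 counts. The summed level of the hepatocyte markers, between 801 and 978 CPM (counts divided by the library size and multiplied by 1000000), was therefore almost wholly that of CPS1.

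Other cell types were looked at with the same kind of list. Fibroblast markers summed to between 44.6 and 75.2 CPM, leukocyte markers to between 53.2 and 59.7 CPM, endothelial markers to between 1.97 and 4.39 CPM, and markers of bile duct or progenitor cells to between 261 and 386 CPM. CD68 alone had 50.1, 55.0, 52.3 and 51.3 CPM of the leukocyte sum. KRT7 alone had 365, 348, 265 and 233 CPM of the bile duct or progenitor sum. Both of these sums were therefore mostly those of a single gene, named after its values were seen. The defining genes PTPRC, CD3E and KDR were at or near 0, with 0, 0, 0 and 2 counts for PTPRC and 0 in every library for CD3E and KDR. The libraries are named by their labels throughout, with no cell type drawn from these levels. In bulk RNA, fewer cells of a type and less RNA per cell cannot be told apart.

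The promoters of ALB, SERPINA1, RBP4 and TF are shown because they set the member with the highest level beside members seen almost only in replicate 2, with few and with many CpG dinucleotides. Each is a window of 300 bases, with 250 bases before and 50 after an annotated start, from RefSeq GRCh38.p14, written 5′ to 3′ on the strand of the gene. The capitals mark CpG dinucleotides, the pairs of bases that cluster in CpG islands.
ALB promoter, chr4:73404037-73404336, plus strand: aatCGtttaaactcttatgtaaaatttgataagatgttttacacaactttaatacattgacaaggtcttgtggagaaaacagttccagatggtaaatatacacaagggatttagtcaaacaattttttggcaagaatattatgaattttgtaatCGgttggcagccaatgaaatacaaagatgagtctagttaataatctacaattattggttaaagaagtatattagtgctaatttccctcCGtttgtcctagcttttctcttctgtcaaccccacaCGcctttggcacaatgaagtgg
SERPINA1 promoter, chr14:94388553-94388852, minus strand: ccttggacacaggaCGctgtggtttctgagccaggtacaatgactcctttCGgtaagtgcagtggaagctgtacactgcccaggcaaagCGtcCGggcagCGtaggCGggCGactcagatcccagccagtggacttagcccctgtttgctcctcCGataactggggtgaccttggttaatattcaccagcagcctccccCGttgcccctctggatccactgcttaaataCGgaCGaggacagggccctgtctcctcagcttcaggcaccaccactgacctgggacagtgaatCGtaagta
RBP4 promoter, chr10:93601186-93601485, minus strand: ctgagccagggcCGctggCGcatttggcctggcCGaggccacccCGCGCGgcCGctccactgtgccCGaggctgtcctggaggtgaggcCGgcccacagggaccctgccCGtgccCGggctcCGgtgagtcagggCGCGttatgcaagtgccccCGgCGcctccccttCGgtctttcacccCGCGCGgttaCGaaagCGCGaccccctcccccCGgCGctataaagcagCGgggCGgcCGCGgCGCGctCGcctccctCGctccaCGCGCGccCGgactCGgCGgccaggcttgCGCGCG
TF promoter, chr3:133746143-133746442, plus strand: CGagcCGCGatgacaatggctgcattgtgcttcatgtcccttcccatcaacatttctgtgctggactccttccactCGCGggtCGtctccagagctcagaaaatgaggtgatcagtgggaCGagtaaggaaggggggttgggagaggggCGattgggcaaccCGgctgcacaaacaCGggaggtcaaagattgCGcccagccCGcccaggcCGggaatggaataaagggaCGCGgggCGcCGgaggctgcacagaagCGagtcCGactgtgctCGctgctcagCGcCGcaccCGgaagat

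Of the members, 8 had such a window in the RefSeq table, with 12 windows among them, and TTR and GC were not in it. The ALB window held 4 CpG dinucleotides and the SERPINA1 window shown held 12. The AHSG and HPX windows held 3 each, SERPINA6 held 4 and SERPINA7 held 0, against a median of 14 over all 35116 windows. RBP4, with 42, 17 and 7 at its annotated starts, and TF, with 36 and, in the window shown, 23, stood above the others at their starts with the most. As many CpG dinucleotides as in the RBP4 window shown were found in 5.85% of all windows, and as few as in the ALB window in 29.6%.

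The 6 letters of a TATA box, TATAAA or, on the other strand, TTTATA, were found in RBP4 and SERPINA7 and in 11.5% of all windows. These are matches of letters and not binding sites. The genes with the most CpG dinucleotides differed in level, since TF had 0 and 1 counts in the replicate 1 libraries and RBP4 had 48 and 55.

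**Figure D1:**
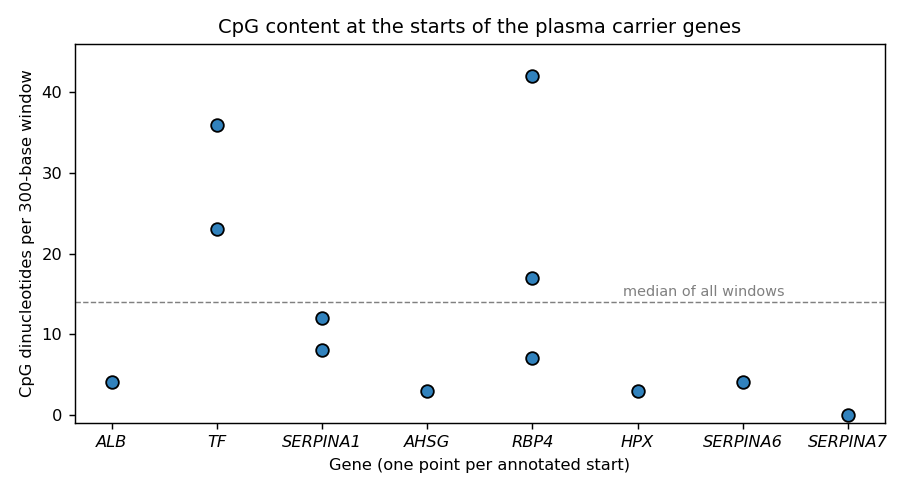
CpG dinucleotides (y axis, number per window of 300 bases) at the annotated starts of the plasma carrier genes (x axis). Each circle is 1 annotated start, and the dashed line is the median of 14 over all 35116 windows. RBP4 reaches 42 and TF 36, and the windows of the other genes hold 12 or fewer.

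RBP4, the plasma carrier of retinol, was the member with the highest level. Its counts were 48, 55, 64 and 56, or 2.87, 3.85, 3.96 and 3.15 CPM, and the ranges of both treatments and of both replicate numbers overlapped. It was also the only member above 3 counts in every library. In the siNC libraries its level per length was 2.94 ± 0.67 CPM per kb (SD, n = 2), or 5.36 and 7.51 TPM, a unit that scales counts per length to 1000000 in each library. This was still a modest level, since between 10375 and 11439 genes had a higher TPM in the 4 libraries. The gene lies at chr10:95351593-95361501 on the minus strand of hg19, the build named in the submitters' notes, as do all gene positions that follow.

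TTR, which binds RBP4 in plasma and lies at chr18:29171730-29178987, had 0, 0, 0 and 3 counts. A library with 0 counts allows a level of up to 0.179 CPM in siNC replicate 1, 0.21 in siLINC01186 replicate 1, 0.186 in siNC replicate 2 and 0.169 in siLINC01186 replicate 2, by a floor of 3 counts that covers counting error only. The carrier and its partner thus differed in these libraries, with RBP4 detected throughout and TTR at or below the floor.

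ALB, the most abundant protein of plasma, had 0, 0, 15 and 14 counts, or 0.929 and 0.788 CPM in the replicate 2 libraries. Both replicate 2 libraries were above both replicate 1 libraries, and the treatments overlapped. In siNC replicate 2 there were 17772 genes with a higher TPM than ALB. ALB lies at chr4:74269956-74287201, and AFP, its relative, starts 14734 bases beyond its end. AHSG, or fetuin-A, an inhibitor of mineral deposition in blood, had 1, 0, 12 and 11 counts at chr3:186330850-186339107 and was likewise seen almost only in the replicate 2 libraries. Its neighbours FETUB and HRG, also genes of liver-secreted proteins, had 0 counts in each library.

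The carriers of iron and haem had different patterns. TF, transferrin, at chr3:133464977-133497850, had 0, 1, 26 and 12 counts, with the highest value in siNC replicate 2. HPX, hemopexin, at chr11:6452268-6462254, had 4, 3, 11 and 9 counts and was the only member besides RBP4 with more than 1 count in a replicate 1 library. The pseudogene LOC100421637 lies within TF on the same strand and was listed at 0 in the 4 libraries.

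SERPINA1, alpha-1-antitrypsin, is an inhibitor of neutrophil elastase rather than a carrier, and had 0, 1, 17 and 7 counts at chr14:94843084-94857029. Its relatives that carry hormones were at or near 0. SERPINA6, the corticosteroid-binding globulin, had 1 count in siNC replicate 2 and 0 in the other libraries. SERPINA7, the thyroxine-binding globulin, and GC, the vitamin D-binding protein, had 0 counts in each library. SERPINA6 lies 53395 bases from SERPINA1, and the nearby SERPINA3 and SERPINA5 had 0, 0, 3 and 2 counts and 0, 0, 2 and 5 counts.

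**Figure D2:**
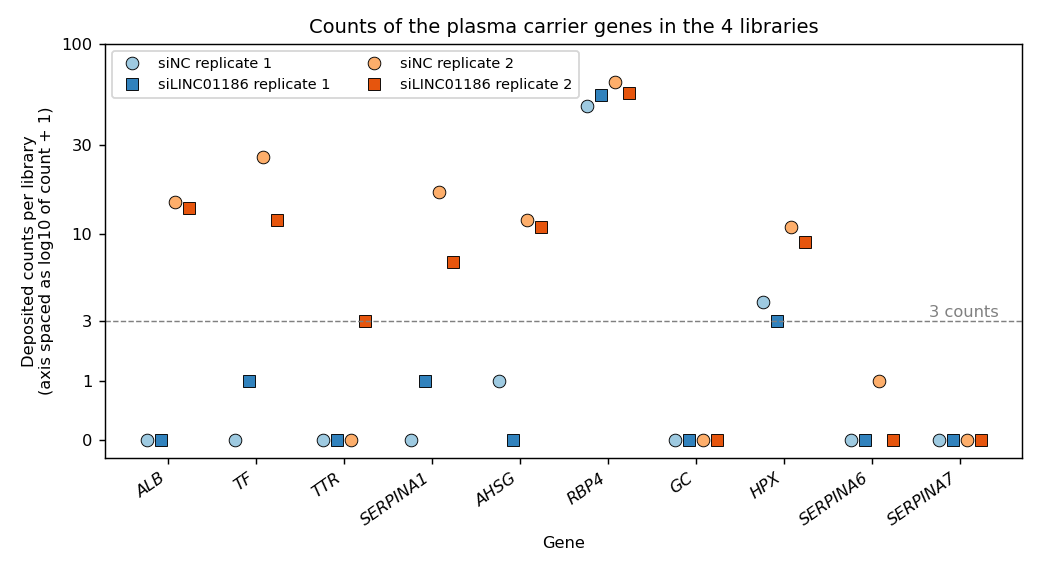
Deposited counts (y axis, spaced as log10 of count + 1) of the 10 plasma carrier genes (x axis) in the 4 libraries, with a dashed line at 3 counts. Circles are siNC, squares are siLINC01186, blue is replicate 1 and orange is replicate 2. RBP4 lies between 48 and 64 in each library, whereas ALB, TF, SERPINA1 and AHSG lie at 0 or 1 in replicate 1 and between 7 and 26 in replicate 2.

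Ordered by the mean level per length in the siNC libraries, RBP4 was followed by TF with 0.289 ± 0.408 CPM per kb (SD, n = 2), HPX with 0.283 ± 0.193, AHSG with 0.255 ± 0.307, ALB with 0.199 ± 0.281 and SERPINA1 with 0.143 ± 0.202. SERPINA6 was last of the detected members with 0.0208 ± 0.0294, and TTR, GC and SERPINA7 were at 0. RBP4 was the only member whose range, from 2.47 to 3.42 CPM per kb, was apart from that of its neighbour in this order. From TF down, each neighbouring pair overlapped. The SD was larger than the mean for TF, AHSG, ALB, SERPINA1 and SERPINA6, because their counts came almost wholly from replicate 2.

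The 10 members together took 53, 60, 146 and 112 counts of their libraries, or 3.06, 4.01, 9.23 and 6.67 CPM of the total counts. The 95% Wilson intervals, which cover counting error only, were 2.34 to 4.01, 3.11 to 5.16, 7.85 to 10.9 and 5.55 to 8.03 CPM. RBP4 made up 90.6% and 91.7% of these counts in replicate 1 and 43.8% and 50% in replicate 2. The sum was thus higher in both replicate 2 libraries than in both replicate 1 libraries, and the part of it that was not RBP4 was 5, 5, 82 and 56 counts.

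Whether the treatment changed the members was asked by comparing the libraries labelled siLINC01186 with the siNC libraries. None of the 6 members with at least 5 counts in all was called at an adjusted p under 0.05 by edgeR's quasi-likelihood test, beside a background of 0.0% of the 23942 genes tested. Over all genes the smallest adjusted p was 0.231, 289 genes had an unadjusted p under 0.05, and DESeq2 called 1 gene. At the looser limits of the study, a log2 fold change beyond 1 with an unadjusted p under 0.05, 0.756% of the genes passed, 0.464% higher and 0.292% lower in the libraries labelled siLINC01186, and 0 of the 6 members. In no tested member were the libraries of the treatments apart, beside 26.0% of all genes.

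RBP4, the member with the most counts, had the narrowest estimate. Its log2 fold change was 0.03 (SE 0.37, adjusted p = 1.00, edgeR's quasi-likelihood test), and the ratio of its counts in the libraries labelled siLINC01186 to those in the siNC libraries was 1.02, with a 95% exact conditional interval of 0.775 to 1.33 that covers counting error only. The sign of this value turned to -0.11 with TPM. A p that misses the threshold does not show that the level of RBP4 was the same.

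The other 5 tested members had negative values with wide errors. TF had -1.03 (SE 1.32) and SERPINA1 had -1.09 (SE 1.34), with count ratios of 0.513 (0.242 to 1.03) and 0.483 (0.18 to 1.18). HPX had -0.32 (SE 0.84), AHSG had -0.28 (SE 1.30) and ALB had -0.15 (SE 1.43), with the adjusted p of each at 1.00 by the same test. The median of the 6 was -0.30, beside 0.00 over all genes tested. Leaving out siNC replicate 2 turned the value of ALB to 5.78 and that of TF to 5.69 in a fit whose siNC group was the replicate 1 library alone.

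Within replicate 2, where the members had counts, the libraries themselves could be compared without a replicate check. TF had 26 counts in siNC and 12 in siLINC01186, a ratio of 0.419 (95% exact conditional interval 0.193 to 0.861). SERPINA1 had 17 and 7 counts, a ratio of 0.374 (0.131 to 0.949). In these genes the intervals lay below 1, which concerns this pair of libraries and not the treatments. For ALB the ratio was 0.848 (0.379 to 1.88), for AHSG 0.833 (0.333 to 2.06), for HPX 0.743 (0.272 to 1.97) and for RBP4 0.795 (0.545 to 1.16), and these intervals included 1.

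Within replicate 1, RBP4 and HPX alone could be compared. The ratio of siLINC01186 to siNC was 1.34 (0.895 to 2.02) for RBP4 and 0.879 (0.129 to 5.20) for HPX. RBP4 was therefore higher by 0.41 on the log2 CPM scale in siLINC01186 of replicate 1, and it fell by 0.32 from siNC to siLINC01186 in replicate 2, and both count intervals included 1.

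**Figure D3:**
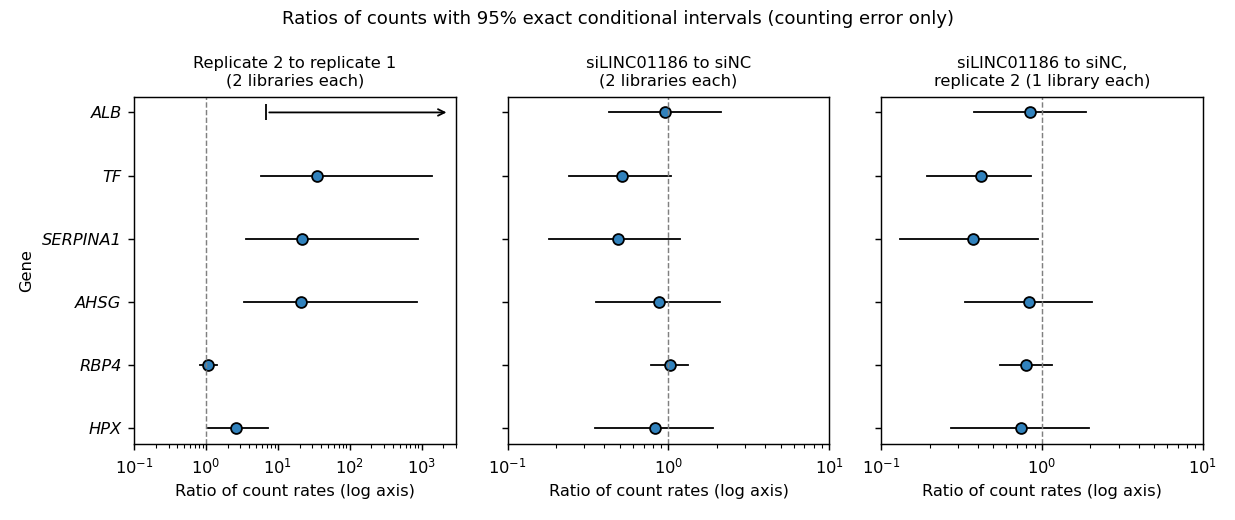
Ratios of count rates (x axis, log scale) for the 6 tested plasma carrier genes (y axis). From left to right the panels show replicate 2 to replicate 1, siLINC01186 to siNC over both replicates, and siLINC01186 to siNC in replicate 2. Points are ratios and lines are 95% exact conditional intervals, and the arrow for ALB starts at the lower bound of 6.75 since its replicate 1 counts are 0. TF, SERPINA1 and AHSG lie at 34.8, 22.0 and 21.0 in the left panel and RBP4 at 1.07.

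The log2 fold change between replicate numbers was 4.15 or more in 4 members, whereas between treatments, with all 4 libraries in edgeR's fit, no estimate was beyond 1.09 in size. These 4, ALB, TF, SERPINA1 and AHSG, had 0 or 1 counts in the replicate 1 libraries together and passed the filter on low counts only through replicate 2. A large value between replicates was therefore set in part by the filter, and its contrast with the treatments is no support of its own. In a fit with treatment and replicate number over the 4 libraries, which leaves 1 residual degree of freedom, 4 of the 6 tested members were called, all of them higher in replicate 2. Over all genes 17.5% were called at an adjusted p under 0.05, 7.96% higher and 9.55% lower in replicate 2. With total counts in place of TMM scaling the split of all calls turned from 1905 higher and 2286 lower to 2792 higher and 1285 lower, and the same 4 members were called.

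ALB had 0 counts in replicate 1 and 29 in replicate 2 and was at least 4.41-fold higher in replicate 2, against a floor of 3 counts per library (adjusted p = 0.000223, edgeR's quasi-likelihood test). TF rose from 1 to 38 counts, a ratio of 34.8 with a 95% exact conditional interval of 5.88 to 1410 and a log2 fold change of 4.83 (SE 1.03, adjusted p = 6.41e-05 by the same test). SERPINA1 rose from 1 to 24 counts, a ratio of 22.0 (3.58 to 903), and AHSG from 1 to 23 counts, a ratio of 21.0 (3.42 to 867). Both had a log2 fold change of 4.15, with SEs of 1.26 and 1.27 and adjusted p of 0.00927 and 0.00986 by edgeR's quasi-likelihood test. The libraries of replicate 2 lay above those of replicate 1 in each of these genes.

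HPX went from 7 to 20 counts, a ratio of 2.61 (1.06 to 7.32), and its log2 fold change of 1.37 (SE 0.89, adjusted p = 0.346, edgeR's quasi-likelihood test) did not pass. RBP4 had 103 and 120 counts, a ratio of 1.07 (0.813 to 1.40) and a log2 fold change of 0.09 (SE 0.27, adjusted p = 0.895, the same test). The interval for RBP4 held no change as large as the lower bounds of ALB, TF, SERPINA1 and AHSG.

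Within each treatment, ALB, TF, SERPINA1 and AHSG had 0 or 1 counts in replicate 1 and between 7 and 26 in replicate 2, so that a log2 difference of their CPM would rest on the prior count and is not given. HPX was higher in replicate 2 by 1.15 on the log2 CPM scale in the siNC libraries and by 0.92 in the siLINC01186 libraries. RBP4 was higher by 0.45 in siNC and differed by -0.28 in siLINC01186.

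The low counts set how firmly this can be said. ALB, TF, SERPINA1 and AHSG passed the filter on low counts only through replicate 2, so their number among those tested is no support of its own, and the 4 members with 3 or fewer counts in all, TTR, GC, SERPINA6 and SERPINA7, were not tested. A fit with no treatment term called 4 members as well, and libraries were left out in that fit. SERPINA1 was then not called without siNC replicate 1 (adjusted p = 0.106) or without siNC replicate 2 (adjusted p = 0.174), and AHSG was not called without the replicate 1 library of siLINC01186 (adjusted p = 0.0982), all by edgeR's quasi-likelihood test. With limma on log2(TPM + 1), 0 members were called, and DESeq2 gave these 4 genes no adjusted p. That limma fit called 0 of all 23942 genes between replicates. Its 0 for the members, and for each list that follows, therefore says nothing particular about them.

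The pattern of at most 1 count in the replicate 1 libraries together and at least 10 in the replicate 2 libraries together was shown by 89 genes, or 0.372% of those tested, of which 46 were protein-coding. ALB, TF, SERPINA1 and AHSG were among them, which restates their counts given above and is no support of its own. The opposite pattern was shown by 25 genes, or 0.104%, of which 5 were protein-coding. In 5 of the 6 tested members both replicate 2 libraries were above both replicate 1 libraries, beside 27.0% of all genes. Of these, ALB, TF, SERPINA1 and AHSG passed the filter on low counts only through replicate 2, so this number is no support of its own. The members that were not tested, TTR, GC, SERPINA6 and SERPINA7, did not show this order.

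Other plasma proteins made by the liver were described from a list of 25 genes. Of these, 15 had enough counts to be tested, 4 were at 0 in each library and 13 did not exceed 3 counts in any. In replicate 2 against replicate 1, 4 were called higher and 0 lower, beside 7.96% and 9.55% of all genes. The median log2 fold change of the list was 1.01, beside 0.02 over all genes, and 0 were called between the treatments. LRG1, a secreted leucine-rich glycoprotein, rose from 7 and 10 counts to 72 and 50 (log2 fold change 2.69, SE 0.39, adjusted p = 6.52e-10, edgeR's quasi-likelihood test). TCN2, the carrier of vitamin B12 to tissues, rose from 70 and 90 counts to 123 and 139 (0.58, SE 0.21). AMBP and A2M, named after their values were seen as the other genes called, rose by 2.95 and 1.56. DESeq2 called LRG1 alone of these 4 and gave AMBP and A2M no adjusted p, limma on log2(TPM + 1) called 0, and a fit with no treatment term called LRG1 and AMBP. AMBP, ITIH2, SERPINA3 and SERPINA5 passed the filter on low counts only through replicate 2. Their counts were 4, 2, 0 and 0 in replicate 1 and 36, 7, 5 and 7 in replicate 2. The median of the list and the call of AMBP are therefore no support of their own.

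CP, the copper-carrying ferroxidase ceruloplasmin, had 60, 95, 97 and 124 counts, with a log2 fold change of 0.38 between replicates (SE 0.22, adjusted p = 0.263, edgeR's quasi-likelihood test). CP and TCN2 were, like RBP4, detected in each library. RBP4, CP and TCN2 had 48 counts or more in each library, whereas 13 of the 25 listed plasma proteins never exceeded 3.

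**Figure D4:**
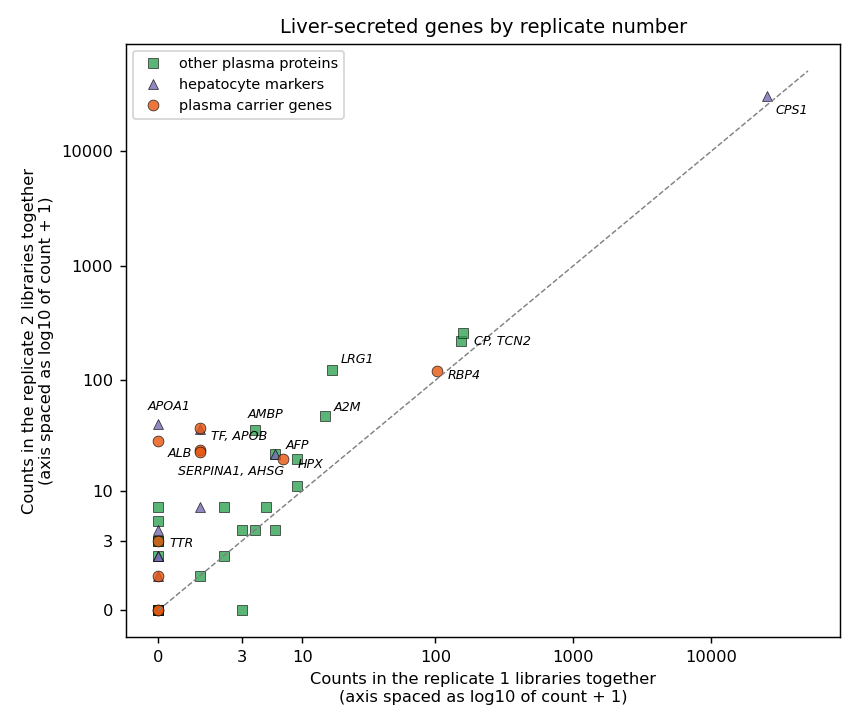
Counts of the plasma carrier genes (circles), other plasma proteins (squares) and hepatocyte markers (triangles) in the replicate 1 libraries together (x axis) and the replicate 2 libraries together (y axis), both spaced as log10 of count + 1, with equal counts on the dashed line. ALB, TF, SERPINA1 and AHSG lie at 0 or 1 on the x axis and between 23 and 38 on the y axis, beside APOA1 and APOB with 41 and 37. RBP4, CP and CPS1 lie close to the dashed line.

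Some genes of the marker lists were called between replicate numbers, namely 2 of 5 tested fibroblast, 1 of 3 leukocyte, 1 of 4 endothelial and 1 of 4 bile duct or progenitor markers. Over all genes 17.5% were called, a share from which lists this short cannot be told apart. Of the 5 hepatocyte markers tested, 2 were called higher in replicate 2, APOA1 from 0 counts in replicate 1 to 41 in replicate 2 and APOB from 1 to 37. APOA1 and APOB passed the filter on low counts only through replicate 2, so their calls are no support of their own. The fibroblast genes COL1A1 and COL3A1 rose by 0.76 and 0.53 on the log2 scale, and the endothelial gene TEK by 2.86. The bile duct keratin KRT7 fell by 0.52. DESeq2 called COL1A1 and KRT7, did not call COL3A1 and gave APOA1, APOB and TEK no adjusted p, and APOB was not called without siNC replicate 2 in a fit with no treatment term (adjusted p = 0.0614, edgeR's quasi-likelihood test). These genes were chosen after their values were seen, and their part in the difference of the plasma carriers was not tested.

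The receptors that take up the carriers and the proteins that recycle them were a list of 12 genes, 10 of them tested. Between replicates, 4 were called higher and 2 lower, beside 7.96% and 9.55% of all genes, and 0 between treatments. TFRC, the receptor through which cells take up transferrin-bound iron, had 8451, 7002, 5550 and 2146 counts and fell by 1.28 on the log2 scale in replicate 2 (SE 0.10, adjusted p = 9.70e-32, edgeR's quasi-likelihood test), though DESeq2 called TFR2 lower and not TFRC. TFR2, the related receptor of liver and erythroid cells, had 1355, 1029, 697 and 800 counts and fell by 0.79 (SE 0.13). Both receptors of transferrin were thus lower in replicate 2, where the TF counts were higher. Within replicate 2, however, siNC had more counts than siLINC01186 of both TFRC (5550 and 2146) and TF (26 and 12), whereas TFR2 had 697 and 800. With 4 libraries this is a description. HMOX1, the heme oxygenase that breaks down haem, rose by 0.72 on the log2 scale (SE 0.15) from 357 and 220 counts to 504 and 512. The other genes called were LRP1, STRA6, the receptor of RBP4, and ASGR1, which rose by 0.50, 0.85 and 3.24 and were named after their values were seen. ASGR1, with 3 counts in replicate 1 and 34 in replicate 2, passed the filter on low counts only through replicate 2. DESeq2 called 4 of these 6 genes and gave ASGR1 no adjusted p, and limma on log2(TPM + 1) called 0. In a fit with no treatment term, which called all 6, TFRC differed by -0.54 without the replicate 2 library of siLINC01186 and by -2.02 without siNC replicate 2, HMOX1 was not called without the replicate 1 library of siLINC01186 (adjusted p = 0.201), and LRP1 and ASGR1 were not called without siNC replicate 1 (adjusted p = 0.0574 and 0.0677), nor ASGR1 without the replicate 2 library of siLINC01186 (adjusted p = 0.0648), all by edgeR's quasi-likelihood test.

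FCGRT, the neonatal Fc receptor that also recycles albumin, had 44, 37, 63 and 57 counts and was named after its values were seen. Its log2 fold change between replicates was 0.44 (adjusted p = 0.330, edgeR's quasi-likelihood test). The receptor was therefore detected in the replicate 1 libraries, in which ALB was at 0.

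Genes that handle the retinol, vitamin D, thyroid hormone and corticosteroids the carriers bring were a list of 16, of which 13 were tested. Between replicates 2 were called higher and 2 lower, beside 7.96% and 9.55% of all genes, and 0 between treatments. CYP24A1, which inactivates vitamin D, rose from 18 and 13 counts to 48 and 53 (log2 fold change 1.58, SE 0.36), and THRA, a thyroid hormone receptor, rose by 0.38 (SE 0.12). The calls of the genes that fell, VDR and HSD11B2, were lost with total counts, and with that scaling 3 were called higher and 0 lower. DESeq2 and limma on log2(TPM + 1) called 0 of the 4, and a fit with no treatment term called CYP24A1 alone. CYP2R1, a vitamin D 25-hydroxylase, and RDH10, a retinol dehydrogenase, had log2 fold changes between treatments of 0.38 and -0.23 that did not pass.

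Most of the listed transcription factors of the liver were detected in replicate 1 as well. Of 15 listed, 13 were tested, 4 were called higher and 2 lower in replicate 2, beside 7.96% and 9.55% of all genes, and 0 between treatments. HNF4A, a nuclear receptor that drives many hepatocyte genes, had 79, 83, 161 and 188 counts and rose by 0.97 on the log2 scale (SE 0.20, adjusted p = 3.33e-05, edgeR's quasi-likelihood test). TEF, a factor of the circadian PAR bZIP family, fell by 0.72 (SE 0.18), and CEBPD had 808, 1023, 889 and 1147 counts with a log2 fold change of 0.02 between replicates and 0.40 between treatments, neither of which passed. DESeq2 and limma on log2(TPM + 1) called 0 of these 6 factors, and a fit with no treatment term called HNF4A alone, which was not called there without siNC replicate 1 (adjusted p = 0.0677, edgeR's quasi-likelihood test). ONECUT1 was at 0 in each library, FOXA2 had 0, 0, 0 and 1 counts, PROX1 had 0, 1, 2 and 3, and FOXA3 had 1, 1, 5 and 4. All of these were named after their values were seen.

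The secretory pathway, which translocates, folds and exports such proteins, was expressed at high levels throughout. All 22 listed genes were tested and together had 97666 counts in siNC replicate 1, and 0 were called between treatments. Between replicates 0 were called higher and 5 lower, beside 7.96% and 9.55% of all genes, with a median log2 fold change of -0.15. CANX, a chaperone of glycoproteins, had 16187, 13362, 13229 and 7338 counts and fell by 0.71 (SE 0.09), SPCS3, a subunit of the signal peptidase, fell by 0.78 (SE 0.15) and EDEM1, which sends misfolded glycoproteins to degradation, fell by 0.35 (SE 0.13). These values rested on the replicate 2 library of siLINC01186, without which, in a fit with no treatment term, CANX differed by -0.22, SPCS3 by -0.35 and EDEM1 by 0.04, and none was called (adjusted p = 0.357, 0.173 and 0.915, edgeR's quasi-likelihood test). With all libraries that fit called SPCS3 alone of the 5, and DESeq2 and limma on log2(TPM + 1) called 0. SSR1, a subunit of the translocon-associated complex, had 3584, 2082, 2996 and 2127 counts, with a log2 fold change of -0.59 between treatments (unadjusted p = 0.0146 and adjusted p = 1.00, edgeR's quasi-likelihood test). Total counts gave 2 higher and 3 lower between replicates, so the direction over this list depended on scaling.

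Among 10180 genes with a mean of at least 10 CPM, those whose centred log2 CPM over the 4 libraries was closest to the median of the members were C1RL, ARNTL, SH3PXD2B, SLC27A1 and ZNF362, with root mean square distances of 0.0614, 0.0631, 0.0664, 0.0678 and 0.0686. The members' median, -0.38, -0.44, 0.57 and 0.46, includes the members at 0 in each library. C1RL, a complement C1r-like protease, had 18.7 and 19.0 CPM in replicate 1 and 37.1 CPM in siNC replicate 2. With 4 libraries such likeness is a description.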

How the data were processed

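RNA-seq libraries of cells labelled HepG2 were grouped by the treatment and replicate number in the sample labels. Raw counts for each gene, with its position, were deposited, and the submitters' notes name hg19 with HISAT2, TopHat2, Bowtie2 and HISAT but give them no role. The counting program and its treatment of strand are not given in the sources used here. The authors also deposited TPM, which equal counts per length scaled to 1000000 within 2.91e-05.

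The 23942 genes whose counts in the 4 libraries added up to 5 or more were TMM-normalized and tested with edgeR 4.0.16 (R 4.3.3) by its quasi-likelihood test, between treatments without a block and between replicate numbers with treatment as a term. Adjusted p-values are Benjamini-Hochberg values across every tested gene. CPM used TMM-scaled library sizes and log2 CPM a prior count of 2. DESeq2 1.42.0, limma 3.58.1 on log2(TPM + 1) and log2(TPM + 0.1), other filters and scalings, the replicate block and leaving out each library were alternatives. The fits were tested on simulated data. Genes named from each list were, for each comparison, the 2 with the smallest p among those with a mean of at least 1 CPM, and for likeness to the members the 5 nearest genes. The members and lists were chosen with earlier results of these data known. Results for some genes of the lists are not reported here.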

Additional observations from a re-analysis of the deposited data

Results flagged for a closer look

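RBP4 is given here because the differences between its libraries had opposite signs in the replicates. The difference of siLINC01186 minus siNC on the log2 CPM scale was 0.41 in replicate 1 and -0.32 in replicate 2. The difference between these values was not tested.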

How the results depend on the processing

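Across the alternatives, 58 of the fold changes of single members between treatments kept their sign and their side of the threshold and 12 changed sign, and between replicates 52 were kept, 11 lost their call and 2 changed sign. The cause was not tested where none is given. The members called between treatments numbered 0 in every alternative run. Genes called between treatments numbered 1 higher with DESeq2, 4 higher and 1 lower with at least 1 count in any library, and 83 higher and 195 lower with the replicate block. The block gave RBP4 a log2 fold change of 0.03 (SE 0.27) and changed no call of a member. The deviations of same-numbered libraries correlated at 0.619 over 15203 genes, a hint from the data and not the design, since there were only 2 pairs. Leaving out each library gave 0 to 6 genes called higher and 0 to 0 lower. Genes past the study limits, 111 higher and 70 lower, became 15 and 12 with DESeq2, 32 and 14 with edgeR's filter on expression, 55 and 79 with log2(TPM + 1) and 177 and 232 with log2(TPM + 0.1), and ranged from 81 to 282 and from 93 to 201 when each library was left out. TPM moved the median log2 fold change of all genes between treatments to -0.12 and -0.16 for these pseudocounts, and the RBP4 value to -0.11 and -0.12.

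Members past the study limits ranged from 0 to 2 when each library was left out, with TF and SERPINA1 past them without siNC replicate 1 and ALB and TF without siNC replicate 2. The log2 fold change between treatments then ranged from -5.88 to 5.78 for ALB, -3.38 to 5.69 for TF, -2.77 to 5.02 for SERPINA1, -5.68 to 2.32 for AHSG, -0.18 to 0.29 for RBP4 and -1.10 to 0.61 for HPX.

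Between replicates, 1905 higher and 2286 lower became 313 and 616 with DESeq2, 0 and 0 with log2(TPM + 1), 0 and 1 with log2(TPM + 0.1), and 1064 and 1094 with no treatment term, in which leaving out each library gave 653 to 1577 and 641 to 1755 (755 and 753 without siNC replicate 1, and 1501 lower without siLINC01186 replicate 2). The lower calls were 1285 with total counts, which moved the median of all genes to 0.13, and 1455 with edgeR's filter. The 4 members called became 0 with both TPM fits and 3 to 4 without each library in the fit with no treatment term. DESeq2 gave no adjusted p for 5 of the 6 members, and its unadjusted p was under 0.05 for 4. With no treatment term the RBP4 value turned to -0.12 without siNC replicate 1 and -0.06 without siNC replicate 2, in a range up to 0.31. A library with 0 counts allows up to 0.21 CPM, so lower levels were not detectable at this depth.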
